A study of Mus musculus with 6 samples.

Results

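Triglyceride assembly in the liver was followed through 10 genes whose products build triglyceride from fatty acids and a glycerol backbone. They are Gpam, Agpat1, Agpat2, Agpat3, Lpin1, Lpin2, Lpin3, Mogat1, Dgat1 and Dgat2. They were chosen by gene name, not by their values, and every non-control probe that the array files assign to one of these names was taken, which gave 24 of 41174 probes, and 10 of 27962 gene names. A probe was tested where each of the 3 arrays of either group read it well above background. This held for 23 of the 24, among 23588 tested probes in all.

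The arrays compared livers of male SIRT1 LKO mice, in which the NAD-dependent deacetylase SIRT1 was deleted in the liver, with livers of male Lox control mice, both on a C57BL/6 background. The mice were aged 10 weeks, had free access to chow and were sampled at 4 pm. Each array carried RNA pooled from 2 mice, so 3 arrays stood for the 6 mice of each group, and p-values measure the spread between pools. What drives the deletion, and which exons it removes, is not stated in the labels.

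Hepatocytes build triglyceride stepwise in the glycerol phosphate pathway. A glycerol-3-phosphate acyltransferase (Gpam in mitochondria) adds the first fatty acid, an acylglycerol phosphate acyltransferase (the Agpat family) adds the next to give phosphatidic acid, a lipin removes the phosphate to give diacylglycerol, and a diacylglycerol acyltransferase (Dgat1 or Dgat2) adds the last fatty acid. Mogat1 reaches diacylglycerol by another route, from monoacylglycerol, and lipin 1 is also known as a nuclear coactivator of fatty acid oxidation genes.

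The probes are 60-base oligonucleotides. Shown first are the 4 probes whose genomic interval in the array files is longer than the probe itself, which were taken from this to join exons. They are 1 each of Lpin2 and Agpat1, on which the results below turn, and both Dgat1 probes, which read the gene at separate places. The interval of Agpat2 A_51_P238563 is 27 bases, shorter than the probe, so this rule cannot say whether it joins exons. The Agpat2 pair is shown because its probes overlap, and capitals mark the 40 bases they share.
Lpin2 A_51_P370438: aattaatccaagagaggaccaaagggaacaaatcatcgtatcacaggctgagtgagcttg
Agpat1 A_51_P322612: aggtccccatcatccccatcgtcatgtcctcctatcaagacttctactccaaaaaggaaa
Dgat1 A_51_P510059: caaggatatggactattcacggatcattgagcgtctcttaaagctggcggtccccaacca
Dgat1 A_52_P456134: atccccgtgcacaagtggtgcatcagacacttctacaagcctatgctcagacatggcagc
Agpat2 A_51_P238563: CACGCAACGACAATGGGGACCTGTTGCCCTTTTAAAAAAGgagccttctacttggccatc
Agpat2 A_51_P238565: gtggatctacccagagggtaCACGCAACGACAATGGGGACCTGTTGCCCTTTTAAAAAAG
Because of the shared run the Agpat2 probes are not independent measurements, and the same holds for the Lpin1 probes A_52_P483104 and A_52_P483105, which also share 40 bases. On mm7, the build of the array files, the Lpin2 probe shown lies at chr17:69525846-69526212 (plus strand), the Agpat1 probe at chr17:32697034-32697183 (plus strand), and the Dgat1 probes at chr15:76585614-76585830 and chr15:76585251-76585397 (minus strand).

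A level here is the log2 intensity of a probe minus that of its array's 75th percentile, which stood at 1005 to 1056 intensity units on 5 arrays and at 1289 for LKO pool 3. The share of probes well above background was 52.2% to 66.3%. The 3 control arrays shared a slide, LKO pools 1 and 2 shared another, and LKO pool 3 lay alone on another. No slide held both groups, so a slide effect between them cannot be told apart from the genotype. LKO pool 3 also differs between the deposited sources: its column in the authors' deposited value table was within 1% of the scanner file for 0.853% of probes, against 99.8% in the other 5 samples. Results are therefore given from the scanner files with all pools and, where they move, without LKO pool 3 and with the value table. Sirt1, the targeted gene, was 0.29, 0.37 and 0.24 in control pools 1 to 3 and -0.07, 0.09 and 0.16 in LKO pools 1 to 3 at its brighter probe (difference -0.24, limma adjusted p = 0.242), and differed by -0.02 at the dimmer one. Neither probe can be placed relative to the deleted part. Hepatocyte transcripts were present throughout, with Alb between 8.78 and 9.32 on the 6 arrays. Of 9 tested probes for fat markers 6 were lower in the LKO livers. The summed level of the 9 (log2 of the mean signal) was 4.43 to 4.51 in the control pools against 3.52 to 4.22 in the LKO pools. It mostly follows the brightest of them, Car3 A_51_P431329, and says little of the other markers. That probe read 7.49 to 7.59 in the control pools against 6.50 to 7.27 in the LKO pools. Cfd differed by -3.44 (adjusted p = 0.114) and the Fabp4 probes by 0.24 to 0.33. Of 11 Kupffer cell marker probes 10 were lower with all pools (median -0.22, and 0.14 with the value table). Their summed level was 1.34 to 2.14 in the control pools against 1.63 to 1.76 in the LKO pools. The adipokine probe for Adipoq was well above background on 1 of 3 control and 1 of 3 LKO arrays, and the part of fat tissue in the results below was not tested. In whole liver, fewer cells of a type and less RNA per cell cannot be told apart.

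With all pools, none of the 23 tested probes passed an adjusted p of 0.05 (limma with Benjamini-Hochberg adjustment over 23588 probes), where 0.0636% of all tested probes passed. At an unadjusted p under 0.05 there were 4 of the 23, against 21.3% of all tested probes, and in 4 of the 23 the groups did not overlap, against 28.8%. These were the same 4 probes: Lpin2 A_51_P370438, both Agpat1 probes and Agpat3 A_51_P425490. In 14 of the 23 the LKO mean was the lower one, against 47.3% of all tested probes, and the median log2 difference was -0.08, against 0.02 over all tested probes. By these counts the assembly genes did not stand out from the array as a whole.

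**Figure D1:**
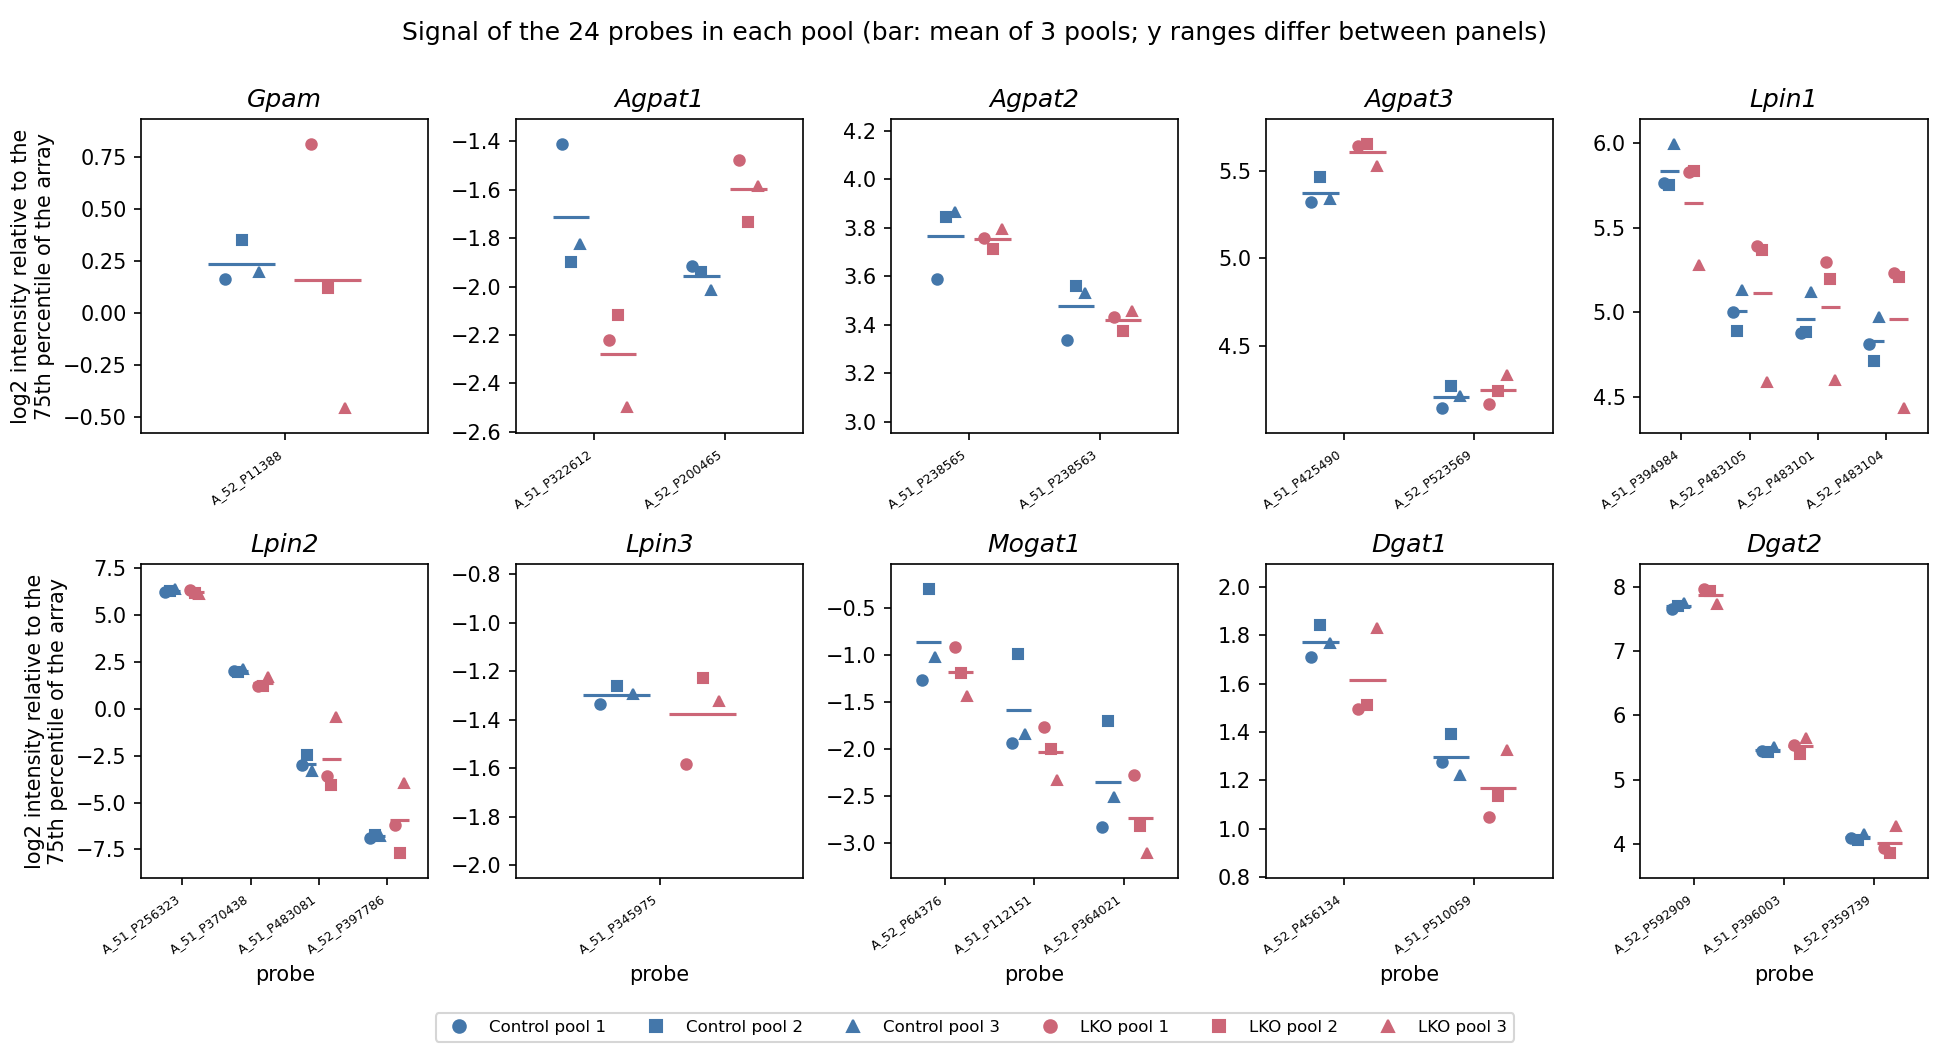
Log2 intensity minus that of the array's 75th percentile (y axis, range set per panel) for the 24 probes of 10 triglyceride assembly genes (x axis), with 1 symbol per pool, blue for control and red for SIRT1 LKO, and bars at the mean of 3 pools. The 2 Agpat1 probes separate the groups in opposite directions, and LKO pool 3 lies below the other pools at all 4 Lpin1 probes.

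Gpam encodes the mitochondrial glycerol-3-phosphate acyltransferase that commits acyl groups to glycerolipid synthesis. Its only probe (chr19:54985147-54985206, mm7, minus strand) read 0.16, 0.35 and 0.20 in control pools 1 to 3 and 0.81, 0.12 and -0.46 in LKO pools 1 to 3. The LKO values surrounded the control values on both sides, with an SD of 0.64 against 0.10. The log2 difference was -0.08 (SE 0.30, 95% interval -0.80 to 0.65, adjusted p = 0.907), and it was 0.23 without LKO pool 3 and 0.16 with the value table. The interval reaches up to 1.57-fold higher, and the data do not tell apart differences that lie inside it.

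The Agpat genes encode the enzymes that turn lysophosphatidic acid into phosphatidic acid. Agpat1 gave opposite readings at its probes. The junction probe A_51_P322612 read -1.41, -1.90 and -1.82 in the control pools against -2.22, -2.12 and -2.50 in the LKO pools, all LKO values below all control values (difference -0.57, SE 0.17, adjusted p = 0.143). The other probe, A_52_P200465, lies 1661 bases further 3′ on the genome at chr17:32698785-32698844 (mm7, plus strand). It read -1.91, -1.94 and -2.01 in the control pools against -1.48, -1.73 and -1.58 in the LKO pools, all LKO values above all control values (difference 0.36, SE 0.10, adjusted p = 0.136). Neither difference passed the threshold. Without LKO pool 3 they were -0.46 and 0.35, and with the value table -0.35 and 0.37, with the signs kept but the groups overlapping at the junction probe in the value table.

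Agpat2 is the family member whose loss causes congenital lipodystrophy. Its probe A_51_P238565 read 3.59, 3.84 and 3.86 in the control pools against 3.76, 3.71 and 3.79 in the LKO pools, which lay inside the control range. The difference was -0.01 (SE 0.11), with a 95% interval of -0.27 to 0.25, and -0.06 at the overlapping probe A_51_P238563.

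Agpat3 has acyltransferase activity on lysophospholipids as well. Its probe A_51_P425490 read 5.32, 5.46 and 5.34 in the control pools against 5.64, 5.65 and 5.53 in the LKO pools. The LKO values were the higher ones in 3 of 3 pools, 1.17-fold on average (log2 difference 0.23, SE 0.09, adjusted p = 0.230). The probe A_52_P523569, 2048 bases further 3′ on the genome, differed by 0.04 (SE 0.09, adjusted p = 0.845) and -0.11 in the fit on the value table, so the probes gave differences of unlike size.

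Lipins are magnesium-dependent phosphatidate phosphatases, and Lpin1 and Lpin2 are the main ones in liver. The clearest separation among the 24 probes was at the Lpin2 junction probe A_51_P370438. It read 2.01, 1.97 and 2.10 in control pools 1 to 3 and 1.22, 1.20 and 1.71 in LKO pools 1 to 3. Every LKO pool was below every control pool, with LKO pool 3 nearest to the controls. The mean was 2.03 ± 0.07 (SD, n = 3) in the controls and 1.38 ± 0.29 (SD, n = 3) in the LKO livers, 1.57-fold lower (log2 difference -0.65, SE 0.16, 95% interval -1.02 to -0.27, limma adjusted p = 0.111). This missed the threshold with all pools. Without LKO pool 3 the probe fell by 0.81 on the log2 scale (SE 0.09, limma adjusted p = 0.0421), where 1.51% of all tested probes fell past the threshold. With the value table, in which LKO pool 3 read 1.19, it fell by 0.82 (SE 0.08, limma adjusted p = 0.0430), where 0.683% of all tested probes did so. Both tested probes for the bile duct marker Sox9 differed by -1.20 and -1.12 with all pools (limma adjusted p of 0.0570 and 0.0650). Without LKO pool 3 they fell on the log2 scale, with differences of -1.19 and -1.06 (limma adjusted p of 0.0450 and 0.0475). With the value table the differences were -0.69 and -0.65 (limma adjusted p of 0.323 and 0.289). With all pools, 5 of the 7 tested bile duct marker probes were higher in the LKO livers, and the 2 lower ones were those of Sox9. The part of bile duct cells in the Lpin2 result was not tested. No other of the 23 probes was called without LKO pool 3 or with the value table. Both of these fits use the same 5 arrays as the fit on all pools.

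The other Lpin2 probes gave smaller or unstable differences. A_51_P256323, 2868 bases further 3′ at chr17:69529021-69529080 (mm7, plus strand), carries a cDNA clone record in the array files. It read 6.22, 6.28 and 6.38 in the control pools against 6.33, 6.14 and 6.11 in the LKO pools, with overlapping groups (difference -0.10, SE 0.10, adjusted p = 0.606). A_51_P483081 lies 42731 bases upstream of A_51_P256323, at chr17:69486290-69486349, and also carries a clone record. It read -2.99, -2.46 and -3.33 in the control pools against -3.57, -4.08 and -0.43 in the LKO pools. LKO pool 3 stood far above the other 5 arrays, so that the difference was 0.23 with all pools, -0.90 without that pool and -0.92 with the value table, where the pool read -3.87 (adjusted p of 0.908, 0.116 and 0.0884 in that order). The probe A_52_P397786, between these at chr17:69494585-69494644, was well above background only in LKO pool 3 and was not tested.

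Lpin1 was read by 4 probes close together on chromosome 12. The most 3′ probe, A_51_P394984 (chr12:16590760-16590818, mm7, minus strand), read 5.76, 5.75 and 5.99 in the control pools against 5.83, 5.83 and 5.28 in the LKO pools. The probe A_52_P483104 read 4.81, 4.71 and 4.97 in the control pools against 5.23, 5.21 and 4.44 in the LKO pools. At that probe, and at A_52_P483101 and A_52_P483105, LKO pools 1 and 2 lay above all 3 controls and LKO pool 3 below all 3. The differences with all pools were between -0.19 and 0.13 at the 4 probes, with adjusted p from 0.565 to 0.863. Without LKO pool 3 the more 5′ probes differed by 0.29 to 0.39 (adjusted p from 0.0879 to 0.163) and the most 3′ probe by -0.01. With the value table these values were 0.13 to 0.22 and -0.08, and no Lpin1 probe passed in any of the 3 fits.

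Lpin3, a family member with little expression in liver, was read by 1 probe at chr2:160646495-160646554 (mm7, plus strand). It was -1.34, -1.26 and -1.29 in the control pools against -1.58, -1.23 and -1.32 in the LKO pools. The LKO pools lay on both sides of the controls, with a difference of -0.08 (SE 0.12, 95% interval -0.36 to 0.20, adjusted p = 0.727).

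Mogat1 encodes a monoacylglycerol acyltransferase that is low in healthy mouse liver. Its probe A_51_P112151 read -1.93, -0.99 and -1.84 in control pools 1 to 3 and -1.77, -2.00 and -2.33 in LKO pools 1 to 3. Control pool 2 was the highest of the 6 arrays at this probe and at the other Mogat1 probes, A_52_P64376 (-0.29) and A_52_P364021 (-1.70). The differences at the 3 probes were -0.45, -0.32 and -0.39, with SEs of 0.27 to 0.33 and adjusted p from 0.393 to 0.531. The groups overlapped at each of them. The array files place these probes on a fragment assigned to chromosome 1 without a position.

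Dgat1 and Dgat2 encode unrelated enzymes for the final acylation step, and Dgat2 is known to act on newly made fatty acids in hepatocytes. Both Dgat1 probes gave like readings. A_52_P456134 read 1.71, 1.84 and 1.77 in the control pools against 1.50, 1.51 and 1.83 in the LKO pools. A_51_P510059 read 1.28, 1.39 and 1.22 in the control pools against 1.05, 1.13 and 1.32 in the LKO pools. LKO pools 1 and 2 lay below all controls at both probes and LKO pool 3 within the control range in the scanner file. In the value table LKO pool 3 read 1.56 and 1.06 in the same order, below all controls. The differences were -0.16 (SE 0.12, adjusted p = 0.480) and -0.13 (SE 0.11, adjusted p = 0.534), and -0.27 and -0.21 without LKO pool 3 (adjusted p of 0.114 and 0.210). With the value table they were -0.25 and -0.22 (limma adjusted p of 0.124 and 0.175).

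The Dgat2 probes lay in a row on chromosome 7 (minus strand, mm7), with A_52_P592909 at chr7:95185607-95185666 the most 3′, A_51_P396003 at chr7:95186363-95186422 and A_52_P359739 at chr7:95186444-95186503. A_52_P592909 read 7.65, 7.69 and 7.75 in the control pools against 7.96, 7.93 and 7.73 in the LKO pools. A_52_P359739 read 4.09, 4.07 and 4.15 in the control pools against 3.93, 3.86 and 4.28 in the LKO pools. LKO pools 1 and 2 were thus above the controls at the most 3′ probe and below them at the most 5′ one. LKO pool 3 did neither in the scanner file. In the value table it read 7.89 and 3.94 at these probes and did both. With the value table the groups did not overlap in 8 of the 23 tested assembly probes, and in 8034 of all 23588. The differences from 3′ to 5′ were 0.18, 0.07 and -0.08 with all pools (adjusted p of 0.364, 0.739 and 0.755). Without LKO pool 3 they were 0.25, 0.00 and -0.21, and the value table gave 0.23, -0.03 and -0.19. The 95% intervals with all pools ran from -0.07 to 0.42, from -0.18 to 0.31 and from -0.40 to 0.24.

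**Figure D2:**
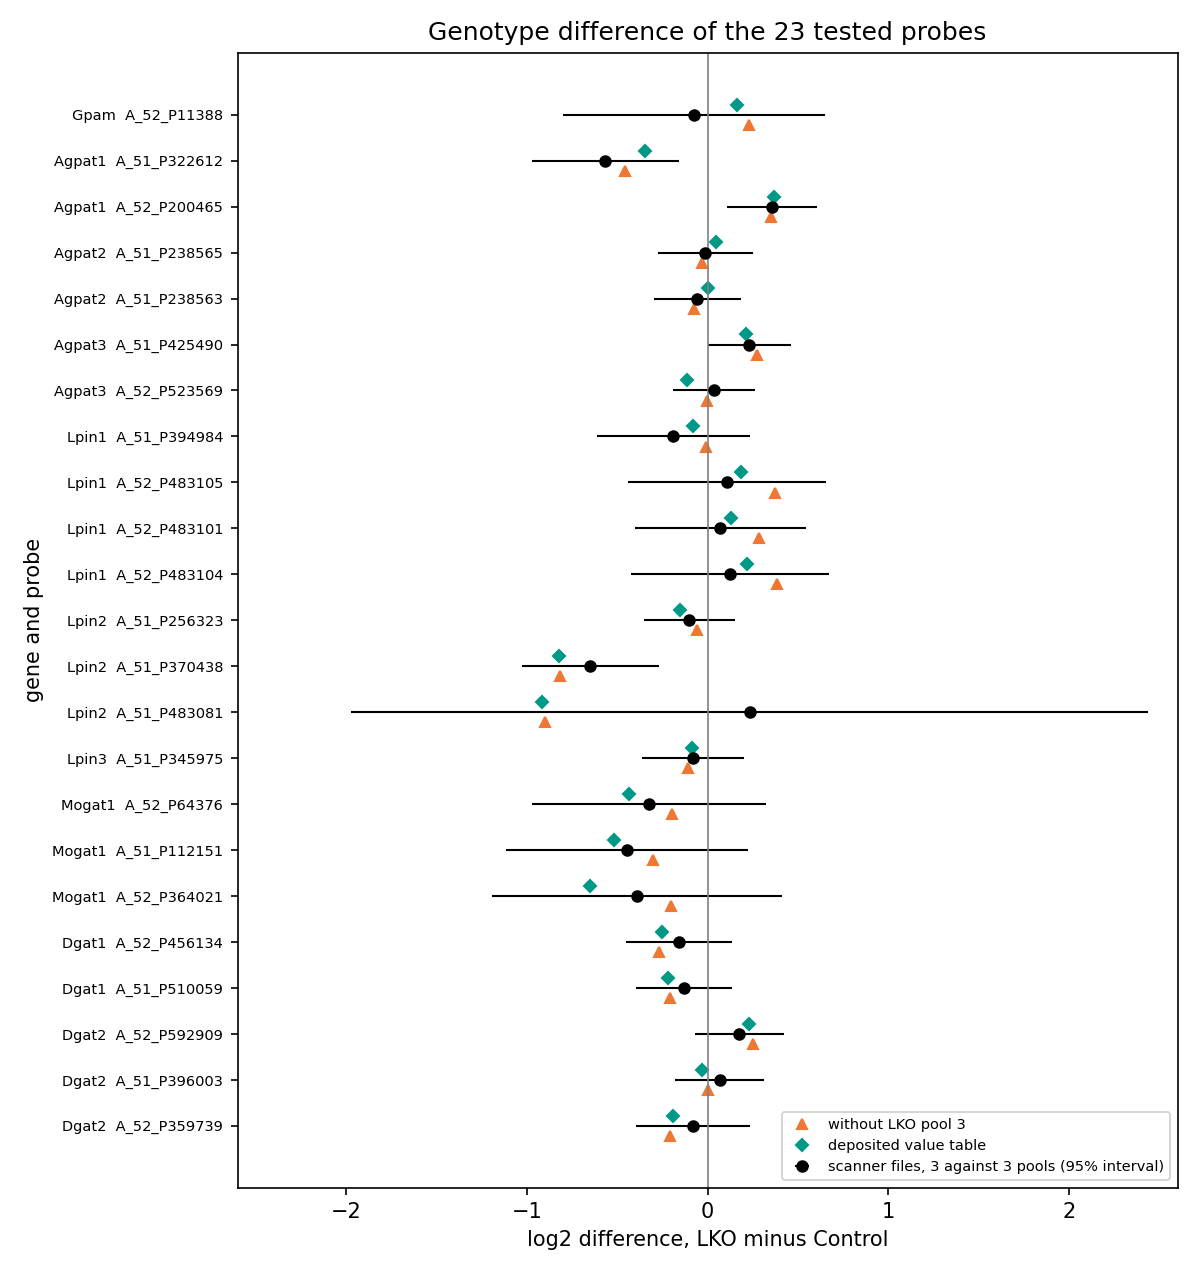
Log2 difference, LKO minus control (x axis), of the 23 tested probes (y axis). Black points with 95% intervals are limma fits on all 6 arrays, orange triangles the values without LKO pool 3 and green diamonds those from the deposited value table. Lpin2 A_51_P370438 lies at -0.65, -0.81 and -0.82 in that order, and Lpin2 A_51_P483081 changes from 0.23 to -0.90 and -0.92.

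Whether probes of a gene differed from each other in their genotype difference was tested by fitting the within-array log2 ratio of the probes, a quantity that subtracting an array-wide level cannot move. The fit covered 10037 pairs of tested probes from 5423 gene names, of which 19 pairs belonged to 8 of the assembly genes. This test was added after the opposite Agpat1 values were seen. With all pools 0 of the 19 pairs passed (limma, 5 at an unadjusted p under 0.05), where 0% of all pairs did (limma, 2378 at an unadjusted p under 0.05). In 7 of the 19 the groups did not overlap, against 31.7% of all pairs. The Agpat1 ratio, the 3′ probe over the junction probe, was -0.50, -0.04 and -0.19 in the control pools against 0.74, 0.38 and 0.91 in the LKO pools. It differed by 0.92 (SE 0.18, limma adjusted p = 0.0905), and 3.29% of all pairs had as large a change. It was 0.81 without LKO pool 3 (adjusted p = 0.0592) and 0.72 with the value table (adjusted p = 0.0578). The Lpin2 ratio, A_51_P256323 over the junction probe, was 4.21, 4.32 and 4.28 in the control pools against 5.11, 4.93 and 4.40 in the LKO pools. Its difference of 0.55 did not pass with all pools (SE 0.19, adjusted p = 0.168), and 13.7% of all pairs had as large a change.

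The Lpin2 pair and the Dgat2 pair of the most 3′ and most 5′ probes were the 2 member pairs that passed without LKO pool 3, where 9.14% of all pairs passed, and with the value table, where 6.49% did. The rise in the Lpin2 ratio was 0.75 without LKO pool 3 (limma adjusted p = 0.0328) and 0.67 in the value table fit (limma adjusted p = 0.0384). The Dgat2 ratio rose by 0.46 and 0.42 in the same order (limma adjusted p of 0.0397 and 0.0415). With all pools it differed by 0.26 (adjusted p = 0.420), and 41.7% of all pairs had as large a change. The Lpin1 ratios of the most 3′ probe over the others lay lower in every LKO pool than in every control pool, with differences of -0.31 to -0.26 (limma adjusted p from 0.150 to 0.166). As large a change was seen in 33.6% to 41.3% of all pairs. These ratios share the most 3′ probe, and 2 of the other probes share 40 bases, so they are not independent measurements. The Dgat1 and Agpat2 ratios differed by -0.03 and 0.04.

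**Figure D3:**
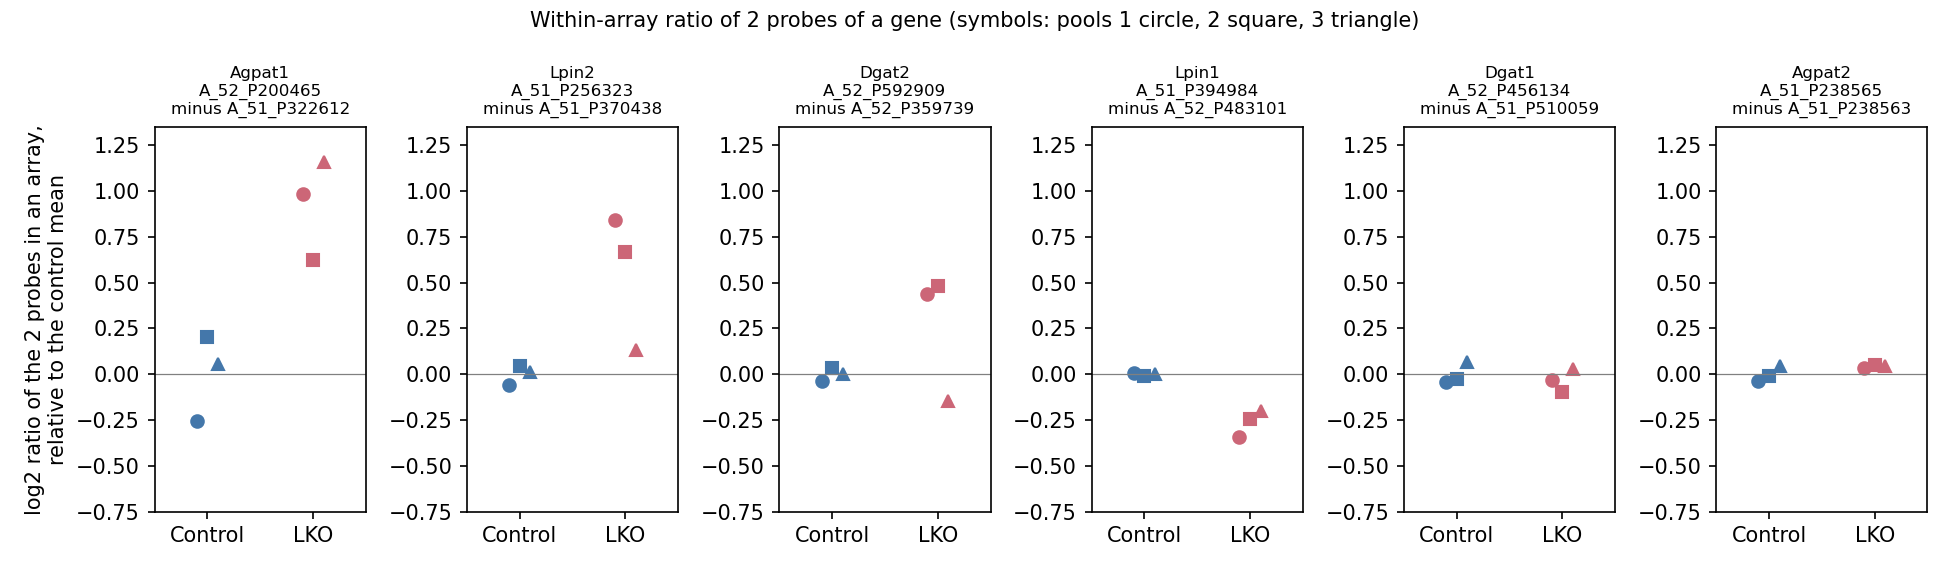
Within-array log2 ratio of 2 probes of a gene (y axis, relative to the control mean) in control and LKO pools (x axis), for 6 of the 19 probe pairs, 1 symbol per pool. The Agpat1 and Lpin2 ratios are higher in every LKO pool than in every control pool, the Dgat2 ratio is higher in LKO pools 1 and 2, and the Dgat1 and Agpat2 ratios differ by -0.03 and 0.04.

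Family members were also set against each other as differences between their genotype differences, using the brightest probe of each and an exact two-sided permutation test over 3 against 3 arrays, in which no p below 0.1 is possible. Of the 7 pairs, Agpat1 against Agpat2 (0.37) and Agpat2 against Agpat3 (-0.24) reached that smallest p of 0.1 (0.35 after Benjamini-Hochberg adjustment over the 7). The Agpat1 value rests on its probe A_52_P200465, whose sign was opposite to that of the other Agpat1 probe. For Dgat1 against Dgat2 the value was -0.34 (exact p = 0.3). The 3 lipin pairs differed by -0.11 to -0.02, with exact p of 0.8 to 1. Their Lpin2 values rest on A_51_P256323 (-0.10) and not on the junction probe (-0.65), with which the value for Lpin1 against Lpin2 would be positive.

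The rest of the glycerolipid pathway was described from 5 lists with 108 tested probes. None passed with all pools (limma), 29 had an unadjusted p under 0.05, and the groups did not overlap in 35. The matching shares of all tested probes were 21.3% and 28.8%. The median difference over the 108 was -0.01. In each list the genes named first are those with the lowest p at the brightest tested probe of a gene. Some dimmer probes with a lower p are named beside them and were chosen after their values were seen. They are not a full list.

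Among 11 other acyltransferases (19 tested probes, median -0.01), these were Agpat4 (0.25, adjusted p = 0.236) and the wax synthase Awat2 (-0.30, adjusted p = 0.237). The dimmer Agpat4 probe differed by 0.34 (adjusted p = 0.187). Agpat5 differed by -0.39 at its dimmer probe (adjusted p = 0.186) and by 0.00 at its brighter one (adjusted p = 0.986). Gpat3, a glycerol-3-phosphate acyltransferase of the endoplasmic reticulum, is outside the naming rule and was chosen after its values were seen. The array files list its probes under a clone name, and their accession is that of Gpat3 in RefSeq. Its probe A_52_P572808 read 1.09, 1.37 and 1.06 in the control pools against -0.11, -0.21 and 1.28 in the LKO pools, and 0.08 for LKO pool 3 in the value table. LKO pools 1 and 2 were below all controls, and LKO pool 3 was within their range in the scanner file and below it in the value table. The difference was -0.85 with all pools (SE 0.39, adjusted p = 0.268). Without LKO pool 3 the probe fell by 1.33 on the log2 scale (SE 0.13, limma adjusted p = 0.0421), where 1.51% of all tested probes fell past the threshold. With the value table it fell by 1.25 on the log2 scale (SE 0.13, limma adjusted p = 0.0430), where 0.683% did so. The other Gpat3 probe, A_51_P306731, differed by -1.04 without LKO pool 3 (adjusted p = 0.0501) and fell by 0.99 on the log2 scale (limma adjusted p = 0.0485) in the value table fit.

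Glycerol phosphate supply held 6 tested genes (14 probes, median 0.08). By the same rule the glycerol-3-phosphate dehydrogenases Gpd1l (0.27, adjusted p = 0.226) and Gpd2 (0.20, adjusted p = 0.612) were named. Lower p-values were found at dimmer probes of Gk, glycerol kinase, and Gpd1, the cytosolic glycerol-3-phosphate dehydrogenase, and in both the groups did not overlap. Gk A_52_P453517 differed by 0.71 (adjusted p = 0.0932) and the brightest Gk probe by 0.04. Gpd1 A_51_P293853 differed by -0.54 (adjusted p = 0.0956) and the brighter Gpd1 probe by 0.02. The dimmer Gpd1l probe differed by 0.24 (limma adjusted p = 0.210). The phospholipid branch, which competes for diacylglycerol and phosphatidic acid, held 18 tested genes (35 probes, median -0.01). In it choline kinase beta (Chkb) was 3.22 ± 0.03 in the control pools against 2.89 ± 0.07 in the LKO pools (SD, n = 3). The difference was -0.34 (limma adjusted p = 0.124), and the dimmer Chkb probe differed by -0.38 (limma adjusted p = 0.110). Ptdss1, a phosphatidylserine synthase, differed by -0.38 (limma adjusted p = 0.191).

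Droplet and export genes (8 genes, 14 probes) had a median of -0.23, with 10 of 14 probes lower. Fitm1, which promotes the budding of lipid droplets, read -0.31, 0.05 and 0.04 in the control pools against -0.64, -0.63 and -1.02 in the LKO pools (difference -0.69, SE 0.16, adjusted p = 0.105). Tm6sf2, which acts in the lipidation of secreted lipoproteins, differed the other way (0.45, adjusted p = 0.147). Bscl2, the seipin gene of lipid droplet formation, differed by -0.47 at its dimmer probe (adjusted p = 0.132) and by -0.26 at its brighter one (adjusted p = 0.228). Of the regulators (12 genes, 26 probes, median -0.02), the clock repressor Nr1d1 differed by -1.26 (SE 0.31, adjusted p = 0.114) and the coactivator Ppargc1b by -0.47 (adjusted p = 0.186). The other Ppargc1b probes differed by 0.30 and -0.31. The dimmer Nr1d1 probes differed by -1.02 and -0.68 (limma adjusted p of 0.0804 and 0.132). Mlxipl differed by 0.44 at its dimmer probe and by 0.09 at its brighter one (limma adjusted p of 0.154 and 0.636). At the probes named by the rule, Fitm1, Tm6sf2, Nr1d1 and Ppargc1b kept their sign without LKO pool 3 and in the value table fit, and passed in neither. Hnf4a, a hepatocyte transcription factor, is outside the naming rule and was chosen after its values were seen. Its probe A_51_P198473 differed by -0.44 with all pools (adjusted p = 0.133) and -0.44 in the value table fit (adjusted p = 0.101). Without LKO pool 3 it fell by 0.56 on the log2 scale (limma adjusted p = 0.0490), where 1.51% of all tested probes fell past the threshold. The brightest Hnf4a probe differed by -0.07 in that fit.

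**Figure D4:**
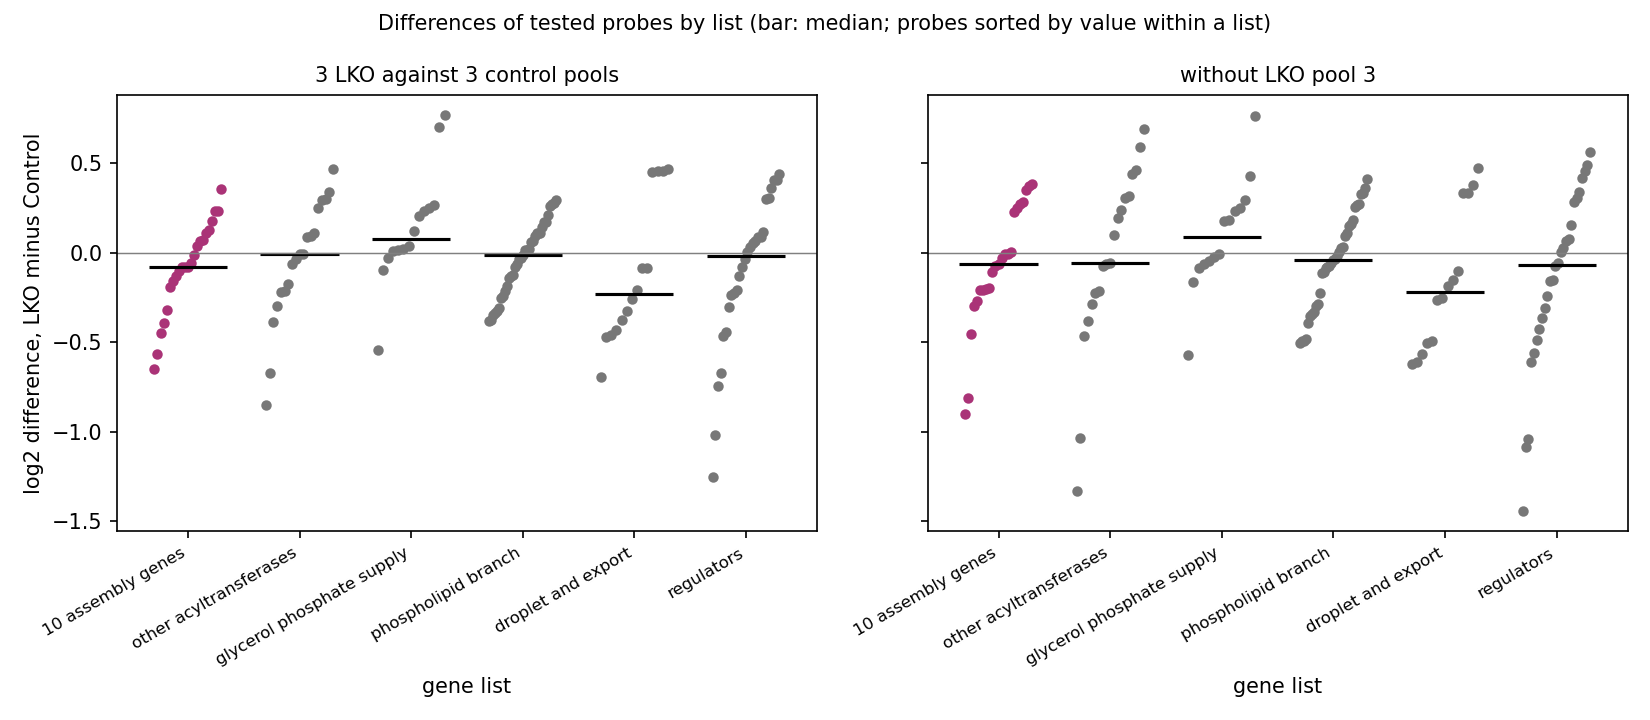
Log2 difference, LKO minus control (y axis), of tested probes in the 10 assembly genes and 5 lists of related genes (x axis), with all pools (left) and without LKO pool 3 (right). Points are probes sorted by value within a list and bars are medians. The medians with all pools are -0.08 for the assembly genes and -0.23 for droplet and export genes.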

How the data were processed

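Liver RNA of 3 control and 3 LKO pools, 500 ng labelled with Cy3, was hybridised to Agilent whole mouse arrays, 1 colour and 45018 spots each. Per the file headers, the scanner software had already subtracted a background from the deposited processed intensity and applied multiplicative detrending; the submitters' processing notes name it as Agilent Feature Extraction 9.5. The deposited value table holds linear intensity from a Rosetta Resolver error model, per the series' design text. Its column medians were 62.0 to 74.5, and its columns equal the scanner values without scaling or centring in 5 samples. For LKO pool 3 the median ratio to the scanner values was 0.719. Its log2 correlation with them was 0.982, against 0.999998 or more in the other 5 samples. The labels do not say how this column arose, and which source is right for LKO pool 3 cannot be settled. Deposited 0 or 1 flags mark background, saturation and outliers.

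Control spots were left out and outlier spots set missing, spots of a probe were averaged after log2, and each array's 75th percentile was subtracted. No assembly probe was saturated or an outlier. Genotype was fitted with limma 3.58.1 in R 4.3.3 (lmFit and eBayes, two-sided, Benjamini-Hochberg), and figures were drawn with matplotlib 3.10.9. The fit was also run on simulated data with independent noise on each array. These held no slide effect and no deviating pool, so they cannot show how the fit behaves with either. Replicates are pools of 2 mice. The number of arrays limits the precision.

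Members, lists and named genes (all members; Sirt1; per pathway list, the 2 genes with the lowest p at their brightest tested probe; Alb and 3 fat markers) were chosen with earlier results of these data known. Gpat3, Agpat5, Gk, Gpd1, Bscl2, Mlxipl, Hnf4a, Sox9 and Car3 are outside this rule and were named after their values were seen. Marker lists of other cell types (7 lists, 57 tested probes) held 0 probes past the threshold with all pools (limma, 13 at an unadjusted p under 0.05); without LKO pool 3, 2 Sox9 probes passed. Alternatives were normexp (offset 50), quantile normalization, median centring, other filters, outliers kept, 1 probe or the mean per gene, slide or replicate blocks, trend with robust variance, the value table, and each pool left out. A sign change was counted as a reversal only where either value passed the threshold. Accessions were matched to RefSeq symbols of GRCm38.p6 (22951 of 41174 probes, 20 of the 24 here). No genome sequence was used, so probes were not placed in exons or UTRs.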

Additional observations from a re-analysis of the deposited data

How the results depend on the processing

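No assembly probe passed under any scaling, filter, block or variance setting tried on the scanner files with all pools. The count was 0 or 1 with 1 pool left out (1 without LKO pool 3) and 1 with the value table, in both cases Lpin2 A_51_P370438. Its values ranged from -0.87 to -0.17 over 17 alternatives (limma adjusted p 0.0421 to 0.812). The -0.17 was the mean over the tested Lpin2 probes, because the setting with the mean per gene has no value for a single probe. Such means per gene are included in the 401 values of assembly probes under alternatives. Of these values, 31 had the sign opposite to the main value, 0 of them past the threshold. Counted in this way, 10 of 23 probes kept their sign throughout. Of the 108 tested probes of the related lists, 2 were called without LKO pool 3 and 2 with the value table. Of all 23588 tested probes, 699 and 308 were called in these fits. Over all probes the count of 15 became 49 with probes above background on all 6 arrays, 91 with trend and robust variance, 24 with 1 probe per gene, 24 with the mean per gene and 308 with the value table. It was 0 after normexp (limma, 1566 at an unadjusted p under 0.05), without a filter (6858) and with the slide as a random block (2636). It ranged from 0 (limma, 3193 to 4493 at an unadjusted p under 0.05 where 0 passed) to 699 with 1 pool left out, the latter without LKO pool 3. Same-numbered pools did not deviate together (correlations 0.01, -0.04 and -0.09, with 0 of 6 samples closest to their own number). These values show no pairing by number, but with 3 pools a group on separate slides they cannot exclude it. With the replicate block 0 probes passed (limma, 4370 at an unadjusted p under 0.05). Pairs of probes of a gene past the threshold numbered 0 with all pools, 917 without LKO pool 3 and 651 with the value table. The cause of these shifts was not tested. At 3 arrays a group, the data do not tell apart differences that lie inside the 95% interval of a probe.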
